A study of Mus musculus with 24 samples.

Results

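The respiratory chain is built from proteins of both genomes, and the 95 genes described here are its members by symbol. They are every gene of the table, 95 of 10818, whose symbol begins with mt-, Nduf, Uqcr, Cox4 to Cox8 or Atp5, or is *Sdha*, *Sdhb*, *Sdhc* or *Sdhd*. A symbol ending in -ps, a pseudogene, was left out (1 gene). Of the 95, 84 are nuclear and 11 are encoded by the mitochondrial genome. The nuclear genes comprise 35 of complex I, 8 assembly factors of complex I (symbols Ndufaf), 4 of complex II, 8 of complex III, 12 of complex IV and 17 of complex V. The 12 of complex IV include *Ndufa4*, whose product sits in that complex despite its name, its relative *Ndufa4l2*, and *Cox7a2l*, whose product joins complexes into larger assemblies. The mitochondrial genes are 7 mRNAs, the 2 ribosomal RNAs and 2 transfer RNAs. The mitochondrial mRNAs of the remaining subunits are not analysed here. All 95 passed the filter on low values.

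The cells were primary mouse epidermal progenitors (keratinocytes, genotype WT), grown from newborn pups on 3T3-J2 feeders, which are mouse fibroblasts, in low-calcium medium. 24 RNA libraries in 8 groups of 3 formed 2 experiments. In the first, cells carried lentiviral shId1, a hairpin against *Id1*, or shScr, a scrambled control. In the second, all cells carried a lentiviral construct for inducible ID1 and were grown with doxycycline (ID1 +dox) or without it (ID1 -dox). Each culture was sampled 24 h into high calcium, the signal for differentiation, and at 0 h, just before. No group stayed in low calcium until 24 h, so the effects of calcium and of a further day of growth cannot be told apart. No group had doxycycline without the ID1 construct, so the drug and ID1 cannot be told apart. As background, tetracyclines such as doxycycline bind the mitochondrial ribosome. The labels call the 3 libraries of a group biological replicates and do not say whether they came from different animals, so p-values measure the spread between these libraries.

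Mitochondria make ATP by passing electrons from NADH (complex I) and succinate (complex II) through complexes III and IV to oxygen, and by letting the protons pumped on the way back through complex V, the ATP synthase. The mitochondrial genome encodes core subunits of complexes I, III, IV and V. It is transcribed from both strands into long precursors that are cut mainly at the tRNAs lying between the coding genes, after which most mRNAs gain A tails. All other subunits, and every protein that transcribes or translates the mitochondrial genome, come from the nucleus. In the epidermis, keratinocytes that leave the basal layer go on to cornification, during which mitochondria are removed.

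Values are normalized signals: reads relative to library size (CPM), scaled by edgeR's trimmed mean factors, with no division by gene length. The libraries held 21442371 to 35720140 reads in the table, and 1 read was worth 0.0263 to 0.0496. Replicate 1 of each shRNA group stood apart from the others, with correlations of 0.976 to 0.990 to their group mates against 0.993 to 0.996 between replicates 2 and 3, so results that rest on them are also given without them. Replicate 3 of ID1 +dox at 24 h stood apart likewise (0.983 and 0.989, against 0.995 between the other two). *Id1* was used to check the labels, and passed the test at 0 h only. It was at 25.7, 19.7 and 39.03 in shId1 cells, against 60.7, 103 and 111 in shScr cells, at 0 h (log2 fold change -1.69, adjusted p = 0.0183), and at 17.6, 40.1 and 29.7, against 27.9, 44.8 and 69.6, at 24 h (-0.67, adjusted p = 0.265). With the construct it was at 41.6, 107 and 73.001 in ID1 +dox cells, against 10.5, 13.2 and 7.15 in ID1 -dox cells, at 0 h (2.72, adjusted p = 2.51e-06), but at 106, 95.995 and 76.1, against 73.9, 67.5 and 59.7, at 24 h (0.46, adjusted p = 0.232). Thus the ID1 +dox and ID1 -dox cultures differed in *Id1* RNA chiefly at 0 h. From 0 h to 24 h *Id1* rose in ID1 -dox cells (log2 fold change 2.68, adjusted p = 2.73e-07) and fell in shScr cells (-0.99, adjusted p = 0.0376). *Id1* therefore does not check the labels of the 24 h libraries. All 10 keratinocyte markers were in the table, at summed signals of 28860 to 68723. Of 12 fibroblast markers 2 were in the table (*Postn* and *Col6a1*, without the defining collagens Col1a1, Col1a2 and Col3a1), summing at 0 h to 194.7 to 306 in ID1 +dox cells, against 139 to 178 in ID1 -dox cells, at 24 h to 289 to 324, against 205 to 214, and to 32.9 to 104 in the shRNA libraries. Melanocyte, leukocyte and endothelial lists had 2 of 6, 1 of 6 and 1 of 4 genes in the table, at sums of at most 61.9. The part of these markers in the results was not tested.

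The 7 mitochondrial mRNAs were lower at 24 h than at 0 h in both ID1-construct cultures, and in neither shRNA culture did they fall together. In the shRNA experiment the 11 mitochondrial genes together made up 2.16% to 2.93% of the library total at 24 h, against 2.86% to 3.34% at 0 h, in shId1 cells, and 2.29% to 2.95%, against 2.27% to 2.45%, in shScr cells. The share in ID1 +dox cells was 0.953% to 1.33% at 24 h, against 2.84% to 3.03% at 0 h, and in ID1 -dox cells 0.838% to 0.908%, against 3.200% to 3.47%. The ranges at the 2 times lie far apart in both ID1-construct cultures. The 84 nuclear genes did not follow: their share was 1.34% to 1.53% at 24 h, against 1.22% to 1.32% at 0 h, in ID1 +dox cells and 1.302% to 1.42%, against 1.27% to 1.42%, in ID1 -dox cells. The summed mitochondrial mRNAs per summed nuclear signal were therefore 0.597 to 0.948 at 24 h, against 2.12 to 2.41 at 0 h, in ID1 +dox cells, and 0.585 to 0.668, against 2.22 to 2.702, in ID1 -dox cells. In bulk RNA, fewer cells of a type and less RNA per cell cannot be told apart.

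**Figure D1:**
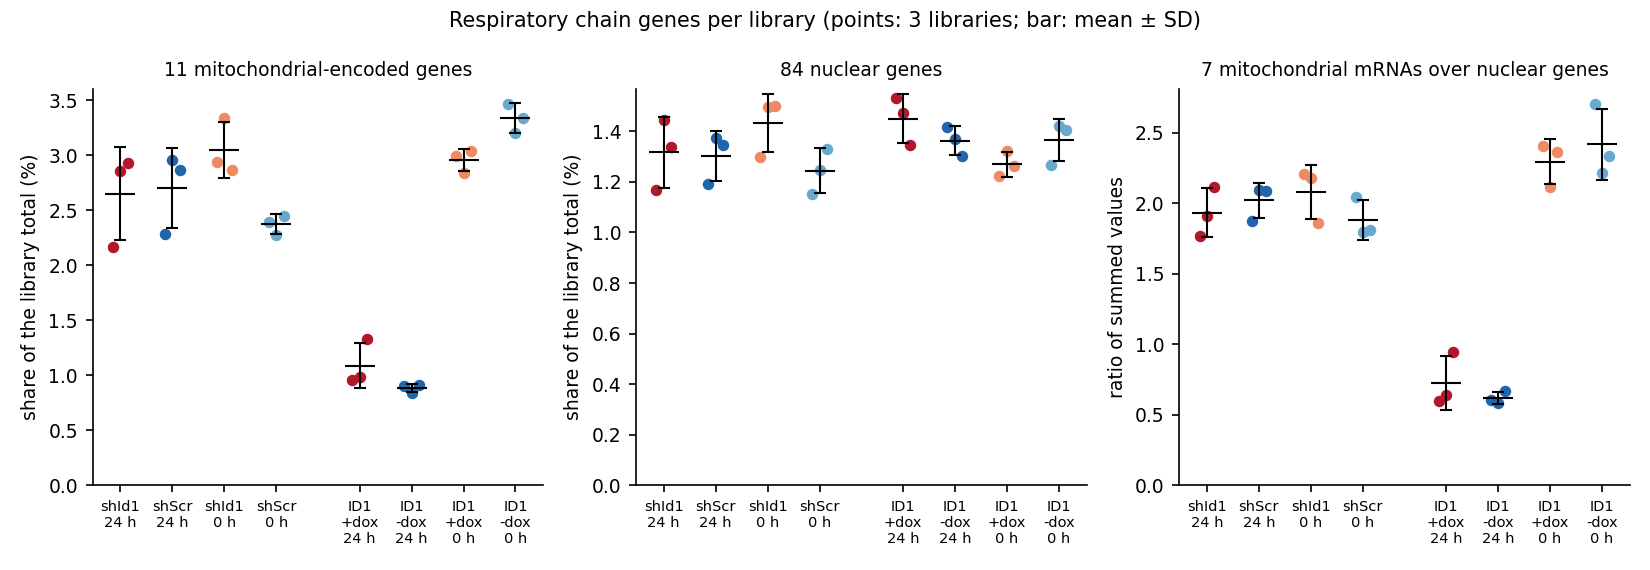
Share of the library total taken by the 11 mitochondrial-encoded genes (left, %) and the 84 nuclear genes (middle, %), and the ratio of the summed 7 mitochondrial mRNAs to the summed nuclear genes (right), in each of 24 libraries (points) with the group mean ± SD (bars). The 6 ID1-construct libraries at 24 h hold 0.838% to 1.33% mitochondrial signal, below all other libraries, while their nuclear shares are 1.30% to 1.53%, against 1.15% to 1.502% in the rest.

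Gene by gene, *mt-Nd1*, a core subunit of complex I, was at 1314, 1174 and 1337 at 24 h in ID1 -dox cells, against 5322, 5363 and 5652 at 0 h, a level 4.28-fold lower (log2 fold change -2.096 ± 0.093 SE, adjusted p = 6.46e-11, limma). In ID1 +dox cells it was at 1224, 1273 and 1489.8, against 3857, 4197 and 4160.4 (log2 fold change -1.62 ± 0.093 SE, adjusted p = 1.97e-09). No 24 h library reached the lowest 0 h library in either culture. In shScr cells *mt-Nd1* was at 2788, 4322 and 4319 at 24 h, against 3541, 3451 and 3867 at 0 h, and the groups overlapped (log2 fold change 0.05, adjusted p = 0.876). In shId1 cells it was at 2219.6, 4186 and 4200.1, against 4545, 5469 and 4732, without overlap but also without passing the test (log2 fold change -0.53, adjusted p = 0.0755); the lowest 24 h value was that of replicate 1.

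*mt-Cytb*, the mitochondrial subunit of complex III, fell to 1546, 1486 and 1541 at 24 h in ID1 -dox cells, against 6326, 6044 and 6433 at 0 h (log2 fold change -2.04 ± 0.116 SE, adjusted p = 7.24e-10), and to 1367, 1474 and 2023, against 4041, 4088 and 4127, in ID1 +dox cells (log2 fold change -1.35 ± 0.116 SE, adjusted p = 9.95e-08). *mt-Co1*, the catalytic subunit of complex IV, carried the largest summed signal of the 11 genes and fell to 4687, 4639.7 and 5015, against 12469, 11198 and 12098, in ID1 -dox cells (log2 fold change -1.32 ± 0.111 SE, adjusted p = 4.49e-08) and to 5552, 5508 and 7239, against 12490.5, 11186 and 12822, in ID1 +dox cells (log2 fold change -1.01 ± 0.111 SE, adjusted p = 1.22e-06). In shScr cells *mt-Co1* was at 9955, 14097 and 13596 at 24 h, against 8252, 7878 and 8552 at 0 h, with each 24 h library above each 0 h library (log2 fold change 0.59, adjusted p = 0.0122). This call was lost with quantile normalization (0.05, adjusted p = 0.646) and without replicate 2 of shScr at 24 h (0.50, adjusted p = 0.0526). In shId1 cells it was at 10717, 15093 and 14783, against 9938, 12330.4 and 10363 (log2 fold change 0.30, adjusted p = 0.161).

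The complex I mRNAs *mt-Nd2*, *mt-Nd4* and *mt-Nd5* behaved alike in the ID1-construct cultures. The level of *mt-Nd2* was 913, 911 and 853 at 24 h, against 3072, 2861 and 2804 at 0 h, in ID1 -dox cells. *mt-Nd4* was at 574, 582 and 590.4, against 1836, 1688 and 1789.6, and *mt-Nd5* at 744, 691 and 719, against 2255, 1828 and 1716, in the same cells. Their log2 fold changes were -1.71, -1.603 and -1.42 in ID1 -dox cells and -1.19, -1.25 and -1.11 in ID1 +dox cells, all past the test. *mt-Nd6*, whose template is the opposite strand of the genome, fell with them, to 195, 164 and 171, against 493, 407 and 392, in ID1 -dox cells (log2 fold change -1.28 ± 0.105 SE, adjusted p = 3.71e-08) and to 191, 192 and 229, against 345, 379.9 and 389, in ID1 +dox cells (log2 fold change -0.87 ± 0.105 SE, adjusted p = 3.18e-06). *mt-Nd5* (chrM:11742-13565) and *mt-Nd6* (chrM:13552-14070) overlap on opposite strands, and the sources used here do not state whether the authors counted by strand, nor how reads shared with nuclear copies of mitochondrial sequence were treated. All 14 of these falls, 7 genes in 2 cultures, passed the test under every alternative without a fold limit, including quantile normalization, scaling to the nuclear-encoded total and the removal of any single library.

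**Figure D2:**
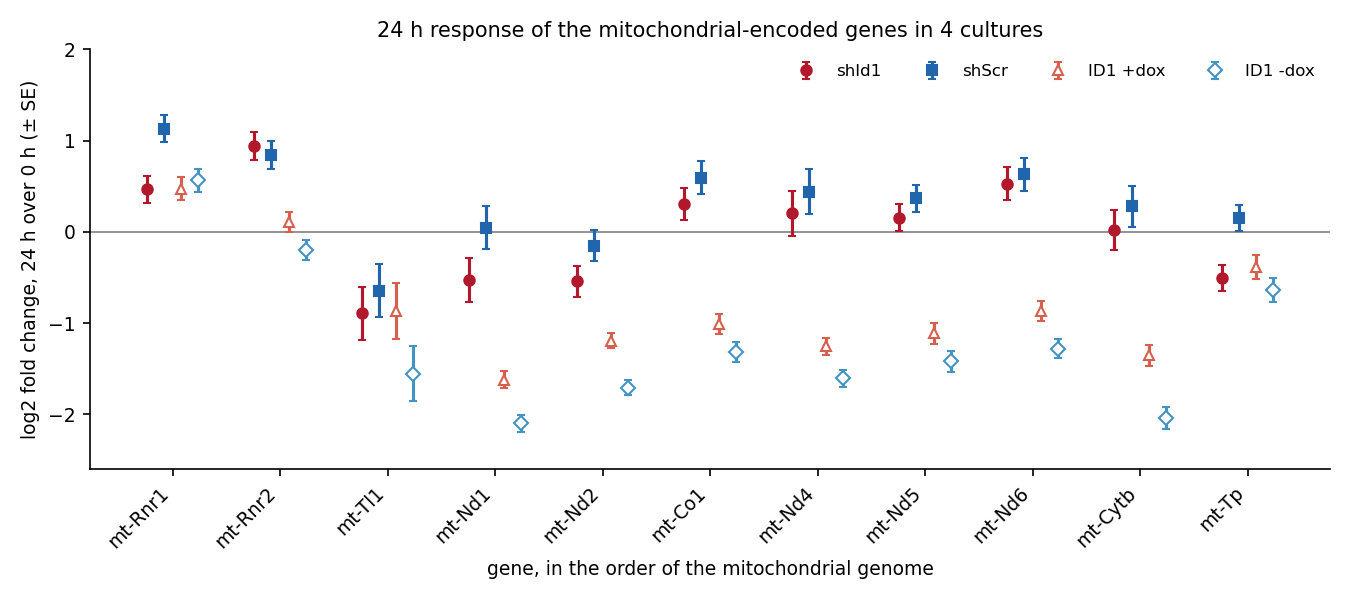
log2 fold change, 24 h over 0 h, of the 11 mitochondrial-encoded genes in the order of the mitochondrial genome, with SE, in shId1 (filled circles), shScr (filled squares), ID1 +dox (open triangles) and ID1 -dox (open diamonds) cultures. The 7 mRNAs lie between -0.87 and -2.10 in the ID1-construct cultures and between -0.54 and 0.63 in the shRNA cultures, while *mt-Rnr1* is above 0 in all 4.

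Of the ribosomal RNAs, *mt-Rnr1* was higher at 24 h and *mt-Rnr2* did not pass the test in the ID1-construct cultures under the authors' scaling, and both results moved with the scaling. *mt-Rnr1*, the 12S rRNA of the small mitochondrial ribosome subunit, was at 218, 205 and 208 at 24 h, against 110.3, 160.3 and 162 at 0 h, in ID1 -dox cells (log2 fold change 0.56 ± 0.123 SE, adjusted p = 0.000695) and at 229.8, 266 and 267, against 173, 181 and 195, in ID1 +dox cells (log2 fold change 0.47 ± 0.123 SE, adjusted p = 0.00288). It rose in shId1 cells too, to 338, 422 and 398, against 246, 307 and 286 (log2 fold change 0.46 ± 0.151 SE, adjusted p = 0.0194), and in shScr cells to 211, 332 and 269, against 119, 116 and 129 (log2 fold change 1.13 ± 0.151 SE, adjusted p = 4.51e-05). It was the only mitochondrial gene higher at 24 h in all 4 cultures, but scaled to the nuclear-encoded total the rise kept its call in shScr cells only. *mt-Rnr2*, the 16S rRNA of the large subunit, was at 255, 232 and 239, against 253, 289 and 295, in ID1 -dox cells and at 218, 238 and 304, against 223, 233 and 242, in ID1 +dox cells, and neither difference passed the test (log2 fold changes -0.20 and 0.11, adjusted p = 0.1 and 0.366). In ID1 -dox cells *mt-Rnr2* passed as lower when scaled to the nuclear-encoded total (-0.58, adjusted p = 0.000709), with quantile normalization (-0.45, adjusted p = 0.00206), in a fit of the compared groups only (-0.20, adjusted p = 0.0331) and without replicate 1 at 0 h (-0.27, adjusted p = 0.0488). In ID1 +dox cells it did not pass under any alternative, and its log2 fold change was between -0.24 and 0.21. In shId1 and shScr cells *mt-Rnr2* rose, with log2 fold changes of 0.95 and 0.84. The libraries were made from poly(A) RNA, so these signals need not follow the whole amount of each RNA. Reads of uncut precursors were not told apart from those of the cut RNAs. Per kilobase, *mt-Rnr2* stood at 176 and *mt-Nd1* at 5690.4 in ID1 -dox cells at 0 h. Tail length was not measured.

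Between *mt-Rnr2* (chrM:1094-2675, GRCm38) and *mt-Nd1* (chrM:2751-3707) lies only the tRNA for leucine, *mt-Tl1* (chrM:2676-2750, + strand) of 75 bases. In human cells a termination factor of mitochondrial transcription binds within this tRNA gene. The second tRNA, *mt-Tp* for proline (chrM:15356-15422, - strand), is read from the same strand as *mt-Nd6*. Both are printed 5′ to 3′ as in the GENCODE transcripts, *mt-Tl1* because it lies between an rRNA and an mRNA whose log2 fold changes differ, and *mt-Tp* as the other tRNA measured, with the anticodon in capitals.
mt-Tl1: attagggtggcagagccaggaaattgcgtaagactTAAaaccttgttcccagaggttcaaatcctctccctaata
mt-Tp: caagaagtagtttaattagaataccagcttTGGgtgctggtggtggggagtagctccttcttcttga
*mt-Tl1* was near the lower end of measurement, at 0.399, 0.450 and 0.744 at 24 h, against 1.35, 2.26 and 4.75 at 0 h, in ID1 -dox cells (log2 fold change -1.55 ± 0.304 SE, adjusted p = 0.000267). It was lower at 24 h in shId1 (log2 fold change -0.89) and ID1 +dox cells (-0.86) too, and did not pass in shScr cells (-0.65, adjusted p = 0.0708). The shId1 and ID1 +dox calls were each lost under several alternatives, among them leaving out replicate 3 at 0 h (adjusted p = 0.073 and 0.0654). *mt-Tp* was at 12.3, 10.3 and 10.2, against 15.9, 18.4 and 17.5, in ID1 -dox cells (log2 fold change -0.64 ± 0.132 SE, adjusted p = 0.000412), a smaller fall than that of the mRNAs.

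Counted over the 11 mitochondrial genes, 9 were lower and 1 higher at 24 h in ID1 -dox cells, where 38.3% of all genes tested were lower and 37.6% higher. The same counts, 9 lower and 1 higher, held in ID1 +dox cells, beside 39.1% and 35.6% of all genes. In shId1 cells 3 were lower (*mt-Nd2*, *mt-Tl1* and *mt-Tp*) and 3 higher (*mt-Nd6* and both rRNAs), beside 28% and 29.5% of all genes. In shScr cells none was lower and 5 were higher (*mt-Co1*, *mt-Nd5*, *mt-Nd6* and both rRNAs), beside 30.1% and 30.6%. The median log2 fold change of the 11 was -1.42 in ID1 -dox cells, -1.005 in ID1 +dox cells, 0.16 in shId1 cells and 0.37 in shScr cells, while that of all genes lay between -0.05 and 0.02. Quantile normalization took the shId1 median to -0.43 and the shScr median to 0.01. Under it 7 of the 11 were called lower and 1 higher in shId1 cells, and 4 lower and 3 higher in shScr cells. No direction is thus read from the shRNA cultures as a whole.

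The control cultures of the experiments, ID1 -dox and shScr, were then compared directly by the difference of their 24 h responses in a fit of all 24 libraries, a comparison added after the data were seen. Of the 11 mitochondrial genes, 10 had a lower response in ID1 -dox cells and none a higher one, where 29.7% of all 10818 genes were lower and 23.1% higher. The differences on the log2 scale were -2.32 ± 0.259 SE, adjusted p = 4.67e-07 for *mt-Cytb*, -2.14 ± 0.263 SE, adjusted p = 1.38e-06 for *mt-Nd1* -1.05 ± 0.195 SE, adjusted p = 0.000143 for *mt-Rnr2* and -0.57 ± 0.206 SE, adjusted p = 0.0247 for *mt-Rnr1*. *mt-Tl1* did not pass (-0.91 ± 0.442 SE, adjusted p = 0.0905). The 7 mRNAs were lower under each of 4 other scalings or sample choices and without any one of the 12 libraries, with the median of the 11 genes between -1.64 and -1.97 and 9 to 11 genes called lower. Of the 84 nuclear genes 4 had a higher and 12 a lower response, and their median difference was 0.04. These counts were 2 and 22, with a median of -0.14, scaled to the nuclear-encoded total, 7 and 18 without the shRNA replicates numbered 1, and 5 and 9 with median-ratio scaling. Construct, culture and experiment cannot be told apart in this comparison.

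Of the 7 mitochondrial mRNAs, 3 fell less with doxycycline by the test of that difference. At 24 h *mt-Nd2* was at 1199, 1143 and 1274 in ID1 +dox cells, against 913, 911 and 853 in ID1 -dox cells (log2 fold change 0.43 ± 0.0799 SE, adjusted p = 0.00173), and *mt-Co1* and *mt-Nd4* were also higher (log2 fold changes 0.34 and 0.31, adjusted p = 0.0401 and 0.0294). At 0 h the order was the other way for *mt-Cytb*, at 4041, 4088 and 4127 in ID1 +dox cells, against 6326, 6044 and 6433 in ID1 -dox cells (log2 fold change -0.62 ± 0.116 SE, adjusted p = 0.000897), and for *mt-Nd1* (log2 fold change -0.42, adjusted p = 0.00293), whose call was lost with quantile normalization (-0.12, adjusted p = 0.391). The interaction of doxycycline and time, that is the ID1 +dox response minus the ID1 -dox response, passed for *mt-Cytb* (log2 fold change 0.68 ± 0.165 SE, adjusted p = 0.0146), *mt-Nd2* (log2 fold change 0.51 ± 0.113 SE, adjusted p = 0.00857) and *mt-Nd1* (log2 fold change 0.48 ± 0.131 SE, adjusted p = 0.031). Among all genes 2.37% had a higher and 8.08% a lower interaction. edgeR's test on recovered reads gave adjusted p of 0.122, 0.0782 and 0.133 for these 3 genes, and the *mt-Nd1* call was also lost without any of 6 single libraries and after quantile normalization. ID1 +dox replicate 3, which stood apart, had the highest *mt-Cytb* of its group at 24 h, 2023; without it *mt-Co1* lost its call at 24 h (adjusted p = 0.0697), as it did without any 1 of the 3 ID1 -dox libraries, while the 3 interactions kept theirs. *mt-Nd4* likewise lost its call at 24 h without any 1 of the 3 ID1 -dox libraries (adjusted p = 0.0699 to 0.0817), with the compared groups only (0.0871) and with edgeR (0.0565). The summed fibroblast markers in the table were also higher with doxycycline at both times, as given above. Of the leukocyte list *Cd68*, the gene in the table, was at 10.7 to 16.6 in ID1 +dox cells, against 6.05 to 10.5 in ID1 -dox cells, at 0 h, and at 44.7 to 61.9, against 27.4 to 43.4, at 24 h. Of the endothelial list *Kdr* was at 8.50 to 9.25, against 2.99 to 3.96, at 0 h, and at 13.0 to 23.6, against 19.4 to 25.6, at 24 h. The part of these markers in the doxycycline results was not tested.

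Turning to the nuclear genes, more passed as higher than as lower at 24 h in both ID1-construct cultures under the authors' scaling. In ID1 +dox cells 62 of 84 were higher and 9 lower, and in ID1 -dox cells 50 were higher and 14 lower, beside 35.6% and 39.1% of all genes with doxycycline and 37.6% and 38.3% without it. With shId1 22 of 84 were higher and 10 lower, beside 29.5% and 28% of all genes, and with shScr 32 and 8, beside 30.6% and 30.1%. The shares of members called higher in the shRNA cultures were thus near those of all genes. The counts in the shRNA cultures grew without the replicates numbered 1, to 44 higher and 11 lower in shId1 cells and to 52 and 6 in shScr cells. The shares of all genes above are those of the fit with all libraries. They also moved with single libraries: in shId1 cells 40 were higher without replicate 1 at 24 h, 14 without replicate 2 at 24 h or replicate 1 at 0 h, and 15 without replicate 3 at 24 h. In shScr cells 19 were higher without replicate 2 at 24 h, 20 without replicate 2 at 0 h and 21 without replicate 3 at 24 h. The median log2 fold change exceeded that of all genes by 0.20 in shId1, 0.31 in shScr, 0.58 in ID1 +dox and 0.38 in ID1 -dox cells. The normalization matters for the sign: scaled to the nuclear-encoded total, the median of all genes moved by -0.28, -0.18, -0.33 and -0.36 in these 4 responses, and the nuclear members counted 10 higher and 21 lower in shId1, 18 and 13 in shScr, 37 and 19 in ID1 +dox and 24 and 29 in ID1 -dox cells. The rises below are thus relative to the authors' scaling, in which all genes have a median near 0.

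By complex, all 12 genes of complex IV were higher at 24 h in ID1 +dox cells, 9 of 12 in ID1 -dox cells, 9 in shScr cells and 6 in shId1 cells, and none was lower. Among all genes 29.5% to 37.6% were higher and 28% to 39.1% lower in the 4 cultures. Complex III counted 6 of 8 higher in each ID1-construct culture, 4 in shScr and 2 in shId1 cells, and 1 lower, in ID1 -dox cells. Complex I counted 27 of 35 higher in ID1 +dox, 22 in ID1 -dox, 13 in shScr and 8 in shId1 cells, with 2 to 5 lower in each. Complex V counted 13 of 17 higher in ID1 +dox, 9 in ID1 -dox and 6 in each shRNA culture. Complex II, shared with the citric acid cycle, had 2 of 4 genes lower in each culture, and 4 or 5 of the 8 assembly factors of complex I were lower in each. In either group 2 genes were higher in the ID1-construct cultures and none in the shRNA cultures. These groups are too small for their counts to be read as different from the shares of all genes.

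**Figure D3:**
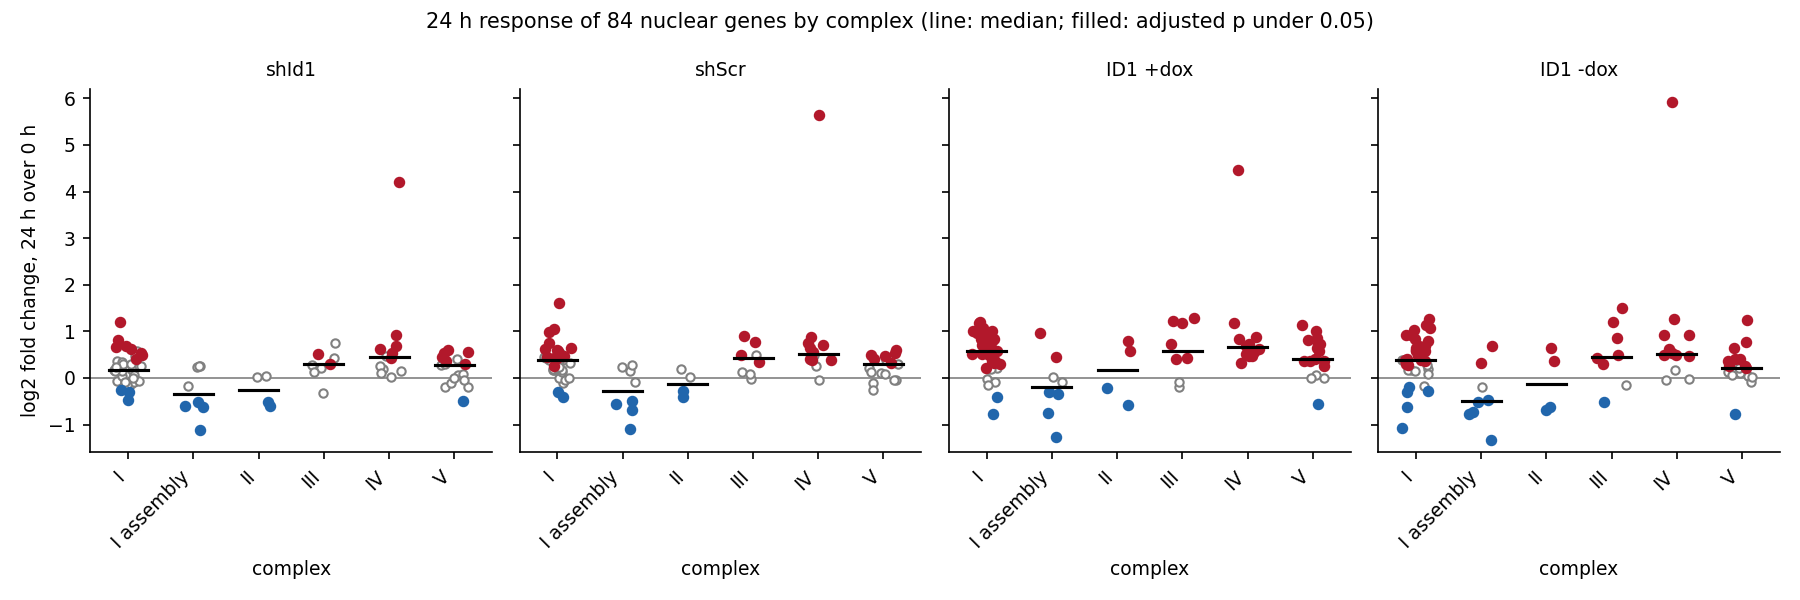
log2 fold change, 24 h over 0 h, of each of the 84 nuclear genes (points) by complex, with the median (line), in 4 cultures; filled points passed the test, red for higher and blue for lower. Complex IV has the highest median in each culture (0.45 to 0.66), the assembly factors of complex I the lowest (-0.19 to -0.50), and *Ndufa4l2* lies at 4.20 to 5.93.

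In all 4 cultures 20 of the 84 nuclear genes were higher and 7 lower at 24 h, where 15.3% of the 10761 genes tested in both experiments were higher in all 4 and 15.3% lower. *Ndufv3*, a subunit of the NADH-binding arm of complex I, was at 108, 213 and 208 at 24 h, against 50.2, 56.4 and 60.05 at 0 h, in shScr cells (log2 fold change 1.598 ± 0.293 SE, adjusted p = 0.000517) and at 183, 212 and 225, against 82.4, 86.5 and 89.3, in ID1 -dox cells (log2 fold change 1.26 ± 0.105 SE, adjusted p = 4.21e-08). *Ndufa6*, an accessory subunit of complex I, was at 66.98, 94.3 and 105, against 32.5, 43.3 and 52.03, in shScr cells (log2 fold change 1.05 ± 0.226 SE, adjusted p = 0.00162) and at 111, 113 and 108, against 38.7, 59.3 and 55.3, in ID1 -dox cells (log2 fold change 1.13 ± 0.123 SE, adjusted p = 7.91e-07). *Cox7a2l* was at 177, 200.1 and 177, against 82.3, 114 and 98.4, in shId1 cells (log2 fold change 0.92 ± 0.150 SE, adjusted p = 0.000268), and its groups did not overlap in any culture. *Uqcrh*, the hinge protein of complex III, rose by log2 fold changes of 0.51 in shId1, 0.49 in shScr, 1.22 in ID1 +dox and 0.87 in ID1 -dox cells. Others higher in all 4 were *Ndufa1*, *Ndufa3*, *Ndufb3*, *Ndufb9* and *Ndufb11* of complex I, *Uqcrfs1*, the Rieske iron-sulfur protein of complex III, *Cox6b1*, *Cox6c* and *Cox7c* of complex IV, and *Atp5e*, *Atp5h*, *Atp5j2*, *Atp5k*, *Atp5l* and *Atp5mpl* of complex V. After scaling to the nuclear-encoded total, 18 of these 21 genes, *mt-Rnr1* included, still had a positive log2 fold change in all 4. The exceptions were *Atp5h*, *Atp5mpl* and *Ndufb3*. This compares signs, not calls: under that scaling only 10 nuclear genes and 1 mitochondrial gene were called higher in shId1 cells. Some of the positive values were small, as for *Atp5k* (0.017 in shId1 and 0.034 in ID1 -dox cells).

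In the ID1-construct cultures several subunits passed 2-fold. *Uqcrq*, a small subunit of complex III, was at 335, 339 and 340.0 at 24 h, against 101, 152 and 111 at 0 h, in ID1 -dox cells (2.82-fold, log2 fold change 1.496 ± 0.167 SE, adjusted p = 1e-06). *Atp5d*, the delta subunit of the ATP synthase, was at 472, 513 and 422, against 189, 212 and 189 (log2 fold change 1.25 ± 0.120 SE, adjusted p = 1.88e-07). In ID1 +dox cells *Uqcr11*, also of complex III, had the largest rise after *Ndufa4l2*, to 290.5, 274 and 198, against 82.5, 122 and 106 (log2 fold change 1.29 ± 0.161 SE, adjusted p = 4.26e-06). *Ndufa3*, *Ndufa7*, *Ndufa11*, *Ndufv3*, *Uqcrh*, *Uqcrq*, *Cox6a1*, *Atp5d* and *Atp5e* also passed 2-fold there, with log2 fold changes of 1.002 to 1.22. Both *Uqcrq* and *Uqcr11* rose in shScr cells too, and neither passed in shId1 cells (adjusted p = 0.0736 and 0.206). *Uqcrq* was at 152, 221 and 305, against 81.1, 122 and 156, in shScr cells (log2 fold change 0.91, adjusted p = 0.035).

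The 7 nuclear genes lower in all 4 were 4 assembly factors of complex I, 1 of its subunits and 2 subunits of complex II. *Ndufaf4*, an assembly factor that binds early intermediates of complex I, was at 13.996, 10.9 and 10.8 at 24 h, against 29.2, 25.1 and 24.4 at 0 h, in shId1 cells (log2 fold change -1.11 ± 0.125 SE, adjusted p = 1.57e-05) and at 14.4, 15.6 and 13.3, against 34.8, 30.6 and 29.4, in shScr cells (log2 fold change -1.102 ± 0.125 SE, adjusted p = 1.22e-05). In ID1 +dox cells it was at 8.16, 9.66 and 11.02, against 23.8, 24.7 and 23.1 (log2 fold change -1.28 ± 0.128 SE, adjusted p = 4.7e-07), and in ID1 -dox cells at 11.6, 8.63 and 9.62, against 24.2, 26.8 and 25.7 (log2 fold change -1.33 ± 0.128 SE, adjusted p = 1.99e-07). No groups overlapped. *Ndufaf5*, *Ndufaf6* and *Ndufaf7* fell by less, with log2 fold changes of -0.30 to -0.77. *Ndufa5*, an accessory subunit of complex I, was at 28.96, 23.6 and 22.5, against 43.9, 58.4 and 58.9, in ID1 -dox cells (log2 fold change -1.08 ± 0.126 SE, adjusted p = 1.5e-06). *Sdhd*, a membrane anchor of complex II, was at 84.2, 96.95 and 101, against 131, 147 and 151, in shId1 cells (log2 fold change -0.60 ± 0.102 SE, adjusted p = 0.000338), and *Sdha*, its flavin subunit, had log2 fold changes of -0.28 to -0.69. All 7 kept a negative log2 fold change in all 4 cultures when scaled to the nuclear-encoded total.

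Some subunits exist as paralogs that replace each other in different tissues. Of the sets examined, the table held *Cox6a1*, *Cox6b1*, *Cox7a2*, *Cox7a2l* and *Cox8a* for complex IV, *Atp5g1*, *Atp5g2* and *Atp5g3*, which encode the same c-ring protein of complex V, and *Ndufa4* with *Ndufa4l2*. *Cox6a1* was at 351, 367 and 319 at 24 h, against 129.6, 156 and 143 at 0 h, in ID1 -dox cells (log2 fold change 1.27 ± 0.132 SE, adjusted p = 4.36e-07), and *Cox8a* at 321, 334 and 283, against 143, 177 and 173 (log2 fold change 0.93 ± 0.131 SE, adjusted p = 1.1e-05). In shScr cells *Cox6a1* passed too (log2 fold change 0.71, adjusted p = 0.0273), but not when scaled to the nuclear-encoded total (adjusted p = 0.0513). *Cox7a2* passed in shScr (log2 fold change 0.39) and ID1 +dox cells (0.51), and lost both calls under that scaling (adjusted p = 0.114 and 0.0865). The c-ring genes did not move together. *Atp5g1* was lower in shId1 cells at 24 h (log2 fold change -0.50, adjusted p = 0.0486) and higher in ID1 +dox cells (0.37, adjusted p = 0.0183), and each of these calls was lost under 6 alternatives. *Atp5g2* passed in ID1 +dox cells only (0.36), and this call too was lost under 6 alternatives, among them scaling to the nuclear-encoded total (0.02, adjusted p = 0.897) and edgeR (0.38, adjusted p = 0.129). *Atp5g3* passed in ID1 +dox (0.57) and ID1 -dox cells (0.25), where the sign turned under quantile normalization (-0.13). How the authors assigned reads shared by these similar genes is not stated.

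*Ndufa4l2* had by far the largest response of the 95 genes. Its product is related to NDUFA4, a subunit of complex IV, and as background the gene is a known target of the hypoxia-inducible factor HIF1. It was at 26.9, 24.8 and 28.3 at 24 h, against 0.840, 2.05 and 0.443 at 0 h, in shId1 cells (log2 fold change 4.197 ± 0.428 SE, adjusted p = 8.17e-06). In shScr cells it was at 23.9, 78.9 and 59.7, against 0.179, 0.547 and 0.793 (log2 fold change 5.65 ± 0.428 SE, adjusted p = 6.01e-07). In ID1 +dox cells it was at 21.2, 19.6 and 22.4, against 0.688, 0.296 and 0.474 (log2 fold change 4.47 ± 0.218 SE, adjusted p = 4.55e-10), and in ID1 -dox cells at 70.4, 108 and 130.1, against 1.56, 0.827 and 1.13 (log2 fold change 5.93 ± 0.218 SE, adjusted p = 9.47e-12). The lowest 24 h library of any culture, at 19.6, stood above the highest 0 h library, at 2.05. Since the 0 h signals rest on few reads, the fold depends on the pseudocount.

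With doxycycline the 24 h level of *Ndufa4l2* was lower than without it, 21.2, 19.6 and 22.4 in ID1 +dox cells against 70.4, 108 and 130.1 in ID1 -dox cells, 4.66-fold (log2 fold change -2.22 ± 0.218 SE, adjusted p = 1.43e-05). No ID1 +dox library came near the lowest ID1 -dox library. At 0 h it was lower too (log2 fold change -0.76, adjusted p = 0.0143), though this call was lost without either of 2 single libraries and with edgeR. The interaction was -1.46 ± 0.308 SE (adjusted p = 0.00654), and was lost with a pseudocount of 0.1 (-1.10, adjusted p = 0.0821) and with edgeR (-1.499, adjusted p = 0.238). Its relative *Ndufa4* went the other way, at 529.9, 515 and 425 in ID1 +dox cells, against 399, 365 and 364 in ID1 -dox cells, at 24 h (log2 fold change 0.38 ± 0.112 SE, adjusted p = 0.0282), a call lost without any 1 of 4 single libraries, replicates 1 and 2 of ID1 +dox and 2 and 3 of ID1 -dox (adjusted p = 0.0878 to 0.109). In shId1 cells at 24 h *Ndufa4l2* was at 26.9, 24.8 and 28.3, against 23.9, 78.9 and 59.7 in shScr cells, where replicate 1 of shScr lay below all 3 shId1 libraries and the others above them, and the difference did not pass (log2 fold change -0.85, adjusted p = 0.214). A list of glycolysis and hypoxia genes, of which 23 of 25 were in the table, had 18 to 20 genes higher at 24 h in each culture, beside 29.5% to 37.6% of all genes. Between ID1 +dox and ID1 -dox cells at 24 h 20 of the 23 were lower and none higher (median -0.58, all genes -0.01), beside 10.9% and 10.6% of all genes. At 0 h 10 were higher and 1 lower, beside 20.5% and 13.8% of all genes. In shId1 against shScr cells at 24 h 4 of the 23 were higher and none lower, beside 7.9% and 6.72% of all genes.

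**Figure D4:**
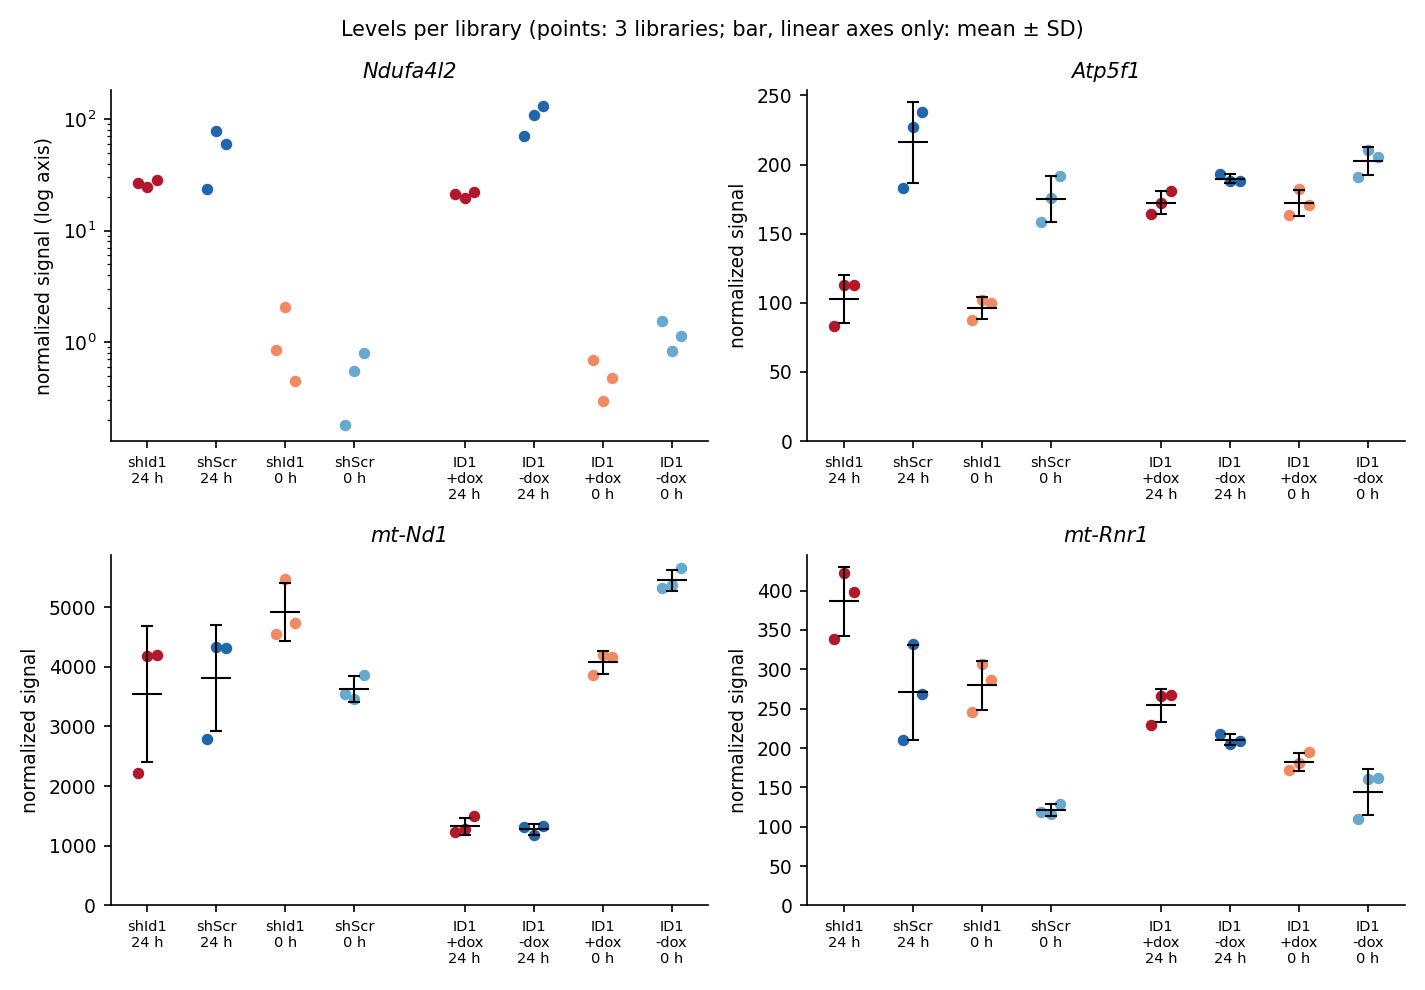
Normalized signal per library of *Ndufa4l2* (log axis), *Atp5f1*, *mt-Nd1* and *mt-Rnr1* (linear axes from 0), 3 libraries a group (points), with mean ± SD bars on the linear axes. *Ndufa4l2* is at 19.6 to 130.1 at 24 h and 0.179 to 2.05 at 0 h, *Atp5f1* is lower in the 6 shId1 libraries (82.9 to 113) than in the 6 shScr libraries (158 to 238), *mt-Nd1* is at 1174 to 1489.8 in ID1-construct cells at 24 h, and *mt-Rnr1* is higher in shId1 than in shScr cells at each time.

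Between shId1 and shScr cells few respiratory chain genes passed the test without a block for the replicate number, and more passed with it. At 0 h none of the 84 nuclear genes was higher and 1 was lower in shId1 than in shScr cells, beside 4.03% and 3.44% of all genes; 3 mitochondrial genes were higher and none lower. At 24 h 2 nuclear genes were higher and 2 lower, beside 7.9% and 6.72% of all genes, and 2 mitochondrial genes were higher. Deviations of same-numbered shId1 and shScr libraries correlated at 0.179 to 0.709. Only the replicates numbered 1, which stood apart in every shRNA group, correlated best with their own number (0.707 at 0 h and 0.709 at 24 h). Whether the numbers pair the libraries is thus not settled. With the replicate number as a block 13 members were called at 0 h in place of 4 and 10 at 24 h in place of 6. With the block set within each time these became 31 at 0 h, 22 nuclear genes higher and 1 lower with 8 mitochondrial genes higher, and 24 at 24 h. Without the replicates numbered 1 there were 25 calls at 0 h and 15 at 24 h. The shares of all genes above are those of the fit without a block and with all libraries. The added calls are thus not read as particular to the respiratory chain. The median log2 fold change of the nuclear genes was 0.18 at 0 h and 0.06 at 24 h. Between libraries of a group, the median level of these genes had an SD of 0.193 on the log2 scale. At 0 h 80 of the 84 were positive, beside 5463 of 10790 among all genes. The 84 genes share libraries and are not independent.

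*Atp5f1*, which encodes subunit b of the ATP synthase stalk, had the lowest log2 fold change of the 95 genes in shId1 against shScr cells at both times. At 0 h it was at 87.3, 102 and 99.97 in shId1 cells, against 158, 176 and 192 in shScr cells, 1.81-fold lower (log2 fold change -0.86 ± 0.139 SE, adjusted p = 0.00311). At 24 h it was at 82.9, 113 and 113, against 183, 227 and 238, 2.103-fold lower (log2 fold change -1.07 ± 0.139 SE, adjusted p = 0.000594). The groups did not overlap at either time, and both calls held under every alternative without a fold limit. No other gene of complex V passed at either time, and in the ID1-construct cells *Atp5f1* was at 164, 172 and 181 with and 193, 188 and 188 without doxycycline at 24 h (log2 fold change -0.14, adjusted p = 0.195). At 0 h it was at 164, 182 and 171 in ID1 +dox cells, against 191, 211 and 206 in ID1 -dox cells, slightly lower (log2 fold change -0.23 ± 0.0745 SE, adjusted p = 0.0251). A single hairpin against *Id1* was used, so an effect of *Id1* and one of that hairpin cannot be told apart here.

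In the unpaired fit the mitochondrial RNAs higher in shId1 than in shScr cells were rRNAs and a tRNA, and other fits added mRNAs at 0 h. *mt-Rnr1* was at 246, 307 and 286 in shId1 cells, against 119, 116 and 129 in shScr cells, at 0 h, 2.29-fold higher (log2 fold change 1.198 ± 0.151 SE, adjusted p = 0.000744). *mt-Rnr2* was at 296, 366 and 302, against 191, 181 and 208 (log2 fold change 0.73 ± 0.153 SE, adjusted p = 0.0143), and *mt-Tp* at 24.01, 25.7 and 23.8, against 13.1, 10.7 and 11.3 (log2 fold change 1.04 ± 0.142 SE, adjusted p = 0.00113). In each case the lowest shId1 library was above the highest shScr library. The *mt-Rnr2* call was lost without replicate 2 of shScr (adjusted p = 0.075) or replicate 2 of shId1 (0.079). At 24 h *mt-Rnr2* remained higher, at 608, 629.8 and 609, against 261, 428 and 374 (log2 fold change 0.83 ± 0.153 SE, adjusted p = 0.0043), and *mt-Rnr1* passed narrowly (log2 fold change 0.53, adjusted p = 0.0348), a call lost under 7 alternatives. The mRNAs had a median log2 fold change of 0.30 at 0 h and 0.03 at 24 h, and none passed in the unpaired fit. At 0 h, 5 of the 7 (*mt-Co1*, *mt-Nd1*, *mt-Nd4*, *mt-Nd5* and *mt-Nd6*) passed as higher with the block within time, 4 without the replicates numbered 1, 3 with the compared groups only and 2 with edgeR. With the block within time *mt-Nd6* was higher and *mt-Nd2* lower at 24 h. At 24 h *Ndufs4* and *Ndufaf5* were higher (log2 fold changes 0.36 and 0.36, adjusted p = 0.0274 and 0.038) and *Ndufa10*, a subunit of complex I like *Ndufs4*, was lower (-0.30, adjusted p = 0.0413); each was lost under 6 or 7 alternatives.

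Whether shId1 changed the 24 h response was tested by the interaction. By limma no member passed in either direction, beside 3.92% higher and 3.59% lower among all genes, with 7 members at an unadjusted p under 0.05, and edgeR called 1. The replicate block gave 1 call, mitochondrial and lower, and the block within time 8, of which 4 nuclear and 4 mitochondrial genes had a lower response in shId1 cells. The shares of all genes given here are those of the fit without a block.

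**Figure D5:**
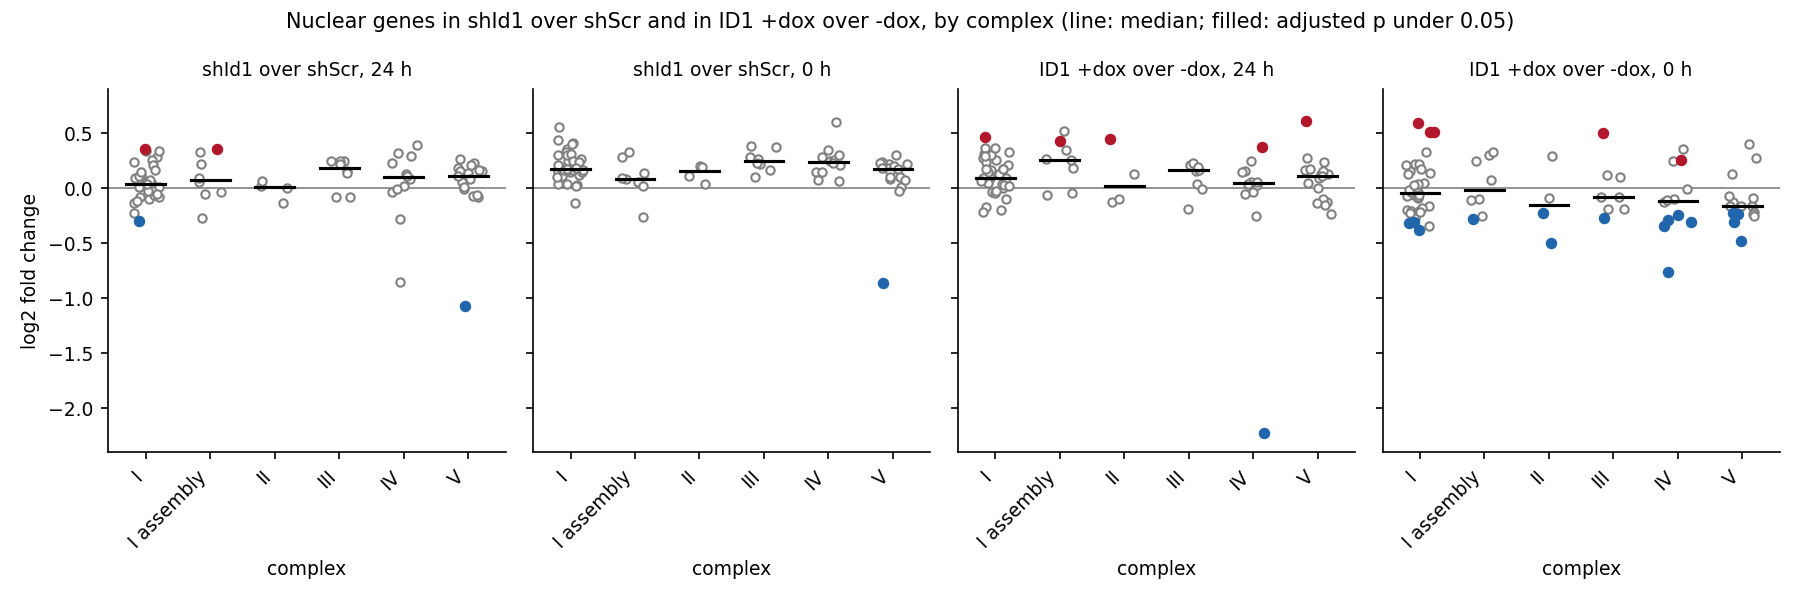
log2 fold change of the 84 nuclear genes (points) by complex with the median (line), for shId1 over shScr at 24 h and 0 h and for ID1 +dox over ID1 -dox at 24 h and 0 h; filled points passed the test. *Atp5f1* stands at -1.07 and -0.86 in the shId1 panels and *Ndufa4l2* at -2.22 in the ID1 +dox panel at 24 h.

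With doxycycline 5 nuclear genes were higher and 16 lower at 0 h, beside 20.5% and 13.8% of all genes, and the median was -0.09. The lower ones included 4 of the 17 genes of complex V and 5 of the 12 of complex IV. *Sdhd* was at 95.6, 101 and 92.5 in ID1 +dox cells, against 124, 139 and 148 in ID1 -dox cells (log2 fold change -0.50 ± 0.0881 SE, adjusted p = 0.000514), and *Atp5g3* at 264, 317 and 289.6, against 401, 397 and 414 (log2 fold change -0.48 ± 0.0981 SE, adjusted p = 0.00164). *Cox6b1* and *Cox7a2* were lower and *Cox7a2l* higher by 0.25 to 0.31 on the log2 scale. Each of these calls was lost without replicate 2 of ID1 -dox (adjusted p = 0.052, 0.0812 and 0.058), and without replicate 1 or replicate 3 of ID1 +dox. The genes that were higher included *Ndufs7*, an iron-sulfur subunit of complex I, at 55.6, 83.7 and 83.2, against 44.4, 54.7 and 45.8 (log2 fold change 0.60 ± 0.157 SE, adjusted p = 0.00893), *Ndufb6* (0.51) and *Ndufa6* (0.51). *Ndufs7* lost its call without replicate 3 of ID1 +dox (adjusted p = 0.0504) and with edgeR (0.516). In edgeR's fit *Ndufb6* and *Ndufa6* had smaller log2 fold changes, 0.30 and 0.37. Among mitochondrial genes *mt-Rnr1* was higher (0.36, adjusted p = 0.0347). This call was lost without replicate 1 of ID1 -dox (0.18, adjusted p = 0.153) and without replicate 2 or replicate 3 of ID1 +dox (adjusted p = 0.0722 and 0.126). The count rests on single libraries: of 24 members called, 12 were called without replicate 3 of ID1 -dox, 15 without replicate 2 and 10 without replicate 3 of ID1 +dox, and edgeR called 4.

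At 24 h, when *Id1* RNA no longer differed beyond the test, 5 of the 84 nuclear genes were higher and 1, *Ndufa4l2*, was lower in ID1 +dox cells, beside 10.6% and 10.9% of all genes. The largest rise was that of *Atp5s*, also known as a coupling factor of the ATP synthase, at 8.02, 7.44 and 8.82 in ID1 +dox cells, against 4.95, 4.32 and 6.201 in ID1 -dox cells (log2 fold change 0.61 ± 0.156 SE, adjusted p = 0.0123). *Ndufb6* was at 83.2, 78.6 and 66.01, against 53.7, 55.5 and 55.1 (log2 fold change 0.46 ± 0.109 SE, adjusted p = 0.00807), and *Sdhb*, the iron-sulfur subunit of complex II, at 154, 144 and 116, against 107, 102 and 93.9 (log2 fold change 0.44 ± 0.113 SE, adjusted p = 0.0126). *Atp5s* lost its call without replicate 2 of ID1 -dox (adjusted p = 0.0612), and *Sdhb* without replicate 3 of ID1 -dox (0.0599) or replicate 2 of ID1 +dox (0.0594). Without replicate 3 of ID1 +dox 33 members were called in place of 9, 28 nuclear genes higher and 3 lower, and without replicate 2 of ID1 -dox 4 were called. Besides *Ndufa4l2* and the 3 mitochondrial mRNAs, the interaction passed for *Ndufv2* (0.39, adjusted p = 0.0438), a call lost under 10 alternatives. Leaving out replicate 3 of ID1 +dox at 24 h gave 20 interactions in place of 5, 16 of them nuclear and higher, and leaving out replicate 1 of ID1 -dox at 0 h gave 13. Leaving out any of 6 other single libraries gave 3. All shares of all genes given here are from the fits with all libraries. Calls added by leaving out a library are thus not read as particular to the respiratory chain.

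Among nuclear genes that transcribe, process or maintain mitochondrial DNA and RNA more were lower than higher at 24 h in each culture. For genes of the mitochondrial ribosome this held in the shRNA cultures only. For all genes the shares lower were 28% to 39.1% and the shares higher 29.5% to 37.6% in the 4 cultures. Of 36 genes that transcribe, process or maintain mitochondrial DNA and RNA 34 were in the table, and 20 to 22 of them were lower and 3 to 5 higher at 24 h in each culture. *Pnpt1*, a ribonuclease imported into mitochondria, had the lowest adjusted p of this list in both ID1-construct cultures, at 13.7, 10.97 and 14.5 at 24 h, against 55.1, 59.7 and 56.9 at 0 h, in ID1 -dox cells (log2 fold change -2.10 ± 0.150 SE, adjusted p = 7.74e-09), and at 39.9, 36.2 and 34.3, against 72.5, 71.5 and 71.4, in shScr cells (-0.96 ± 0.0858 SE, adjusted p = 2.01e-06). *Fastkd2*, needed for the 16S rRNA, had log2 fold changes of -1.79 in ID1 -dox and -1.09 in shScr cells. Of the 72 mitochondrial ribosomal protein genes 21 were higher and 19 lower at 24 h in ID1 -dox cells, 36 and 14 in ID1 +dox cells, 3 and 25 with shId1 and 4 and 23 with shScr. The 18 citric acid cycle genes had 3 to 6 higher and 5 to 7 lower in each culture. Of 44 assembly factors outside the symbol rule 38 were in the table, with 8 to 15 higher and 9 to 15 lower, so the citric acid cycle genes and the assembly factors were near the shares of all genes. For scale, 62 to 67 of 76 cytosolic ribosomal protein genes were higher at 24 h in each culture.

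Short transcripts tended to have higher 24 h values. The rank correlation of exon length with the 24 h log2 fold change was -0.33 to -0.37 over the 84 nuclear members and -0.19 to -0.30 over all genes, which share libraries and are not independent. The median exon length was 1772.5 bases for the members and 4445 bases for all genes.

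Finally, RefSeq promoter windows (GRCm38.p6, 250 bases before to 50 bases after the start) were found for 71 of the 84 nuclear genes. Letters were searched on both strands as descriptions, not as sites. The palindromic NRF1 motif was in the windows of 26.8% of the 71 genes and 5.19% of all 27025 genes. CCGGAAG (ETS factors) was in 25.4% and 9.93%, AAGATGGC (YY1) in 15.5% and 3.19%, and AAGGTCA (estrogen-related receptors) in 11.3% and 5.38%. ACGTG, the core of the hypoxia response element, was in 23.9% and 21.8%, and the E-box CANNTG, bound by the bHLH factors whose partners ID proteins sequester, in 71.8% and 75.0%; these letters can overlap each other in CACGTG. Of the genes that the results turn on, *Ndufa6* rose at 24 h in all 4 cultures, *Cox6a1* in all but the shId1 culture, *Ndufaf4* fell in all 4, and *Atp5f1* was lower with shId1. Their windows are printed 5′ to 3′ on the gene's strand, with matches to the NRF1, ETS, YY1 and estrogen-related receptor letters in capitals, as examples of members named above.
Cox6a1: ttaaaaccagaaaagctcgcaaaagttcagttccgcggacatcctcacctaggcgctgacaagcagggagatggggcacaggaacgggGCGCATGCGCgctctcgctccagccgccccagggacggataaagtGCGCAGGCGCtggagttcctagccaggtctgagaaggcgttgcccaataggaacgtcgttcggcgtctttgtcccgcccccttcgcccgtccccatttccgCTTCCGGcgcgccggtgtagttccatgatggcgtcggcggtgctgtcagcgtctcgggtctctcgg
Ndufa6: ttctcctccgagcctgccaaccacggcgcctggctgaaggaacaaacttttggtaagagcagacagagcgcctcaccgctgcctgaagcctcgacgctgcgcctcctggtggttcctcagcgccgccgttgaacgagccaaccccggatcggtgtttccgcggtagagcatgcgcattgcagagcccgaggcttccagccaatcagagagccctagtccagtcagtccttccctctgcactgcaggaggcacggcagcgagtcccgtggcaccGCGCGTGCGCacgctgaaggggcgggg
Ndufaf4: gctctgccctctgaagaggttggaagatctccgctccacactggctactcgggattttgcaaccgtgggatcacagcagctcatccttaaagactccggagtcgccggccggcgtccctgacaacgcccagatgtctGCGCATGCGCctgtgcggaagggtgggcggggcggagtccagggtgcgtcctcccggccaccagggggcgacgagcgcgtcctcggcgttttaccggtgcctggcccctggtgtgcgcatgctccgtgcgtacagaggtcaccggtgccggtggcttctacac
Atp5f1: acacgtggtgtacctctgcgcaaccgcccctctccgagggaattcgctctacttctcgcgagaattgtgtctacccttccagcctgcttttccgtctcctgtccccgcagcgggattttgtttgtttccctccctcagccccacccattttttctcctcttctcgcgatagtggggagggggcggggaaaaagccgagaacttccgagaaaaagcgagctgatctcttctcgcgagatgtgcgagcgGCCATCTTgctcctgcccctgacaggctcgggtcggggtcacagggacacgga
The windows lie at chr5:115348909-115349208 (*Cox6a1*, - strand), chr15:82354242-82354541 (*Ndufa6*, - strand), chr4:24897833-24898132 (*Ndufaf4*, + strand) and chr3:105959214-105959513 (*Atp5f1*, - strand). *Cox6a1* has 2 NRF1 matches and 1 ETS match, *Ndufa6* and *Ndufaf4* have 1 NRF1 match each, and *Atp5f1* has 1 YY1 match beside its start.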

How the data were processed

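The data are bulk RNA-seq of mouse epidermal progenitors (TruSeq Stranded mRNA kit). The submitters' processing notes name bcl2fastq 2.19.1.403, CASAVA and the build GRCm38; the aligner and counter are not given in the sources used here. The deposited table holds 1 signal per gene and library, which the authors made with edgeR (TMM); its title names FPKM, but the values are counts per library size (CPM scaled by TMM factors) with no length division, since 100% of values in each library lie within 0.05 of a whole number of reads. Whole reads could be recovered for 18 libraries. Control columns carry the name of the reporter H2BGFP and were assigned to shScr by elimination and by the reporter vector of the study's methods. No column of values was left out (0).

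Values were tested as log2(signal + 0.5) with limma 3.58.1 (R 4.3.3, trend and robust), 12 libraries per experiment, genes at 1 or more in 3 or more libraries (10790 and 10789), Benjamini-Hochberg over all of them, called at adjusted p under 0.05 with no fold limit; folds on this scale understate the change of low genes. The method was tested on simulated data. The difference between control cultures, and the block within time, were added after the data were seen. Every adjusted p is limma's unless edgeR is named. edgeR 4.0.16 on the recovered reads used 8 and 10 libraries per experiment, leaving 1 library in each of 2 groups, assumed to vary like the rest; its calls among members were 26, 4, 58, 71 and 1 (shId1 at 0 h and 24 h, 24 h in shId1 and in shScr, interaction) and 4, 6, 69, 69 and 0 (doxycycline, in the same order with ID1 +dox before ID1 -dox; 17 members had an unadjusted p under 0.05 in the last). Deviations of same-numbered shId1 and shScr libraries correlated at 0.179 to 0.709, above 0.1 in every pair, which is the only evidence of pairing. Only the replicates numbered 1 correlated best with their own number. Pairing therefore cannot be told apart from these replicates standing apart in each group. Named genes are all mitochondrial members, nuclear members called beyond 2-fold, the 3 largest rises and falls per comparison, paralog sets, and genes with the lowest adjusted p of other lists. A gene that the rule names is not reported here. Members and lists were chosen with earlier results of these data known. Alternatives were other pseudocounts (0.1, 1), filters, normalizations, a fold limit, the compared groups alone, the replicate block, edgeR and leaving out libraries.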

Additional observations from a re-analysis of the deposited data

Results flagged for a closer look

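The 24 h response differed between ID1 +dox and ID1 -dox cells for 5 respiratory chain genes, by the interaction of doxycycline and time (limma, log2 scale, ID1 +dox minus ID1 -dox). It was more positive for *mt-Cytb* (0.68), *mt-Nd2* (0.51), *mt-Nd1* (0.48) and *Ndufv2* (0.39) and more negative for *Ndufa4l2* (-1.46). Beside these, 2.37% of all genes had a higher and 8.08% a lower interaction, so the count is not read as particular to the members. Each of these calls was lost under at least 1 alternative, as given above.

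The 24 h response also differed between ID1 -dox and shScr cells, in the comparison added after the data were seen (limma over 24 libraries, log2 scale, ID1 -dox minus shScr). Of the mitochondrial genes, *mt-Cytb* (-2.32), *mt-Nd1* (-2.14), *mt-Nd4* (-2.04), *mt-Co1* (-1.91), *mt-Nd6* (-1.91), *mt-Nd5* (-1.78), *mt-Nd2* (-1.55), *mt-Rnr2* (-1.05), *mt-Tp* (-0.79) and *mt-Rnr1* (-0.57) had the lower response in ID1 -dox cells. Of complex I, *Ndufs1* (-0.80), *Ndufa5* (-0.66), *Ndufs4* (-0.54), *Ndufv2* (-0.49) and the assembly factors *Ndufaf2* (-0.44) and *Ndufaf1* (-0.36) were lower and *Ndufb6* (0.62) was higher. Of the other complexes, *Atp5s* (-0.91), *Cox7b* (-0.79), *Uqcrb* (-0.64), *Ndufa4* (-0.42), *Sdha* (-0.41) and *Atp5f1* (-0.39) were lower, and *Atp5d* (0.82), *Cox5a* (0.66) and *Sdhc* (0.33) were higher. Beside these, 29.7% of all genes had a lower and 23.1% a higher response. Construct, culture and experiment cannot be told apart here.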

How the results depend on the processing

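Of 124 named results, 78 kept direction and call under all their alternatives and 46 lost the call under at least 1; of 2055 values 178 lost it and 3 reversed. Reversed were *mt-Nd5* at 24 h in shScr cells (-0.14, quantile normalization) and *Atp5g3* in ID1 -dox cells (-0.13 with quantile normalization and -0.13 scaled to the nuclear-encoded total). Low members such as *mt-Tl1* and *Ndufa4l2* at 0 h rest on few reads. Genes outside the 10818 of the table are not analysed here. The cause of each shift below was not tested.

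Members called, by limma unless edgeR is named, were as follows. They are given without the shares of all genes under the same settings. A changed count is thus not read as particular to the members. For shId1 against shScr at 0 h (4), counts were 11 with quantile normalization, 9 scaled to the nuclear-encoded total, 13 with the replicate block, 31 with the block within time, 2 with a fold limit of 2, 10 with the compared groups only, 25 less the replicates numbered 1 and 26 with edgeR, and 3 to 5 leaving out single libraries. At 24 h (6) they were 10 with the replicate block, 24 with the block within time, 1 with the fold limit, 2 with the compared groups only, 15 less the replicates numbered 1, and 2 to 10 leaving out single libraries. For 24 h in shId1 cells (38) they were 58 with the replicate block, 3 with the fold limit, 65 less the replicates numbered 1, 58 with edgeR, and 28 to 54 leaving out single libraries. In shScr cells (45) they were 5 with the fold limit, 71 with edgeR, and 29 to 56. For the interaction of shId1 and time (0) they were 4 with quantile normalization, 2 scaled to the nuclear-encoded total, 1 with the replicate block, 8 with the block within time, 4 less the replicates numbered 1, 1 with edgeR, and 0 to 2. For doxycycline at 0 h (24) they were 0 with the fold limit, 4 with edgeR, and 10 to 30. At 24 h (9) they were 1 with the fold limit and 4 to 33. For 24 h in ID1 +dox (81) and ID1 -dox cells (74), the fold limit left 19 and 19, and single libraries gave 74 to 83 and 64 to 72. For the interaction of doxycycline and time (5) they were 8 with median-ratio scaling, 10 scaled to the nuclear-encoded total, 1 with the fold limit, 0 with edgeR (17 at an unadjusted p under 0.05), and 3 to 20.

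The median log2 fold change of the mitochondrial genes at 24 h was -1.11 with a pseudocount of 0.1, -1.70 with quantile normalization and -1.35 scaled to the nuclear-encoded total in ID1 +dox cells (-1.005), -1.82 and -1.79 under quantile normalization and that scaling in ID1 -dox cells (-1.42), -0.43 and -0.13 in shId1 cells (0.16), and 0.0109 with quantile normalization in shScr cells (0.37). Leaving out single libraries it was -1.14 to -0.94, -1.45 to -1.30, 0.00 to 0.31 and 0.28 to 0.49 in these 4 cultures, -0.00887 to 0.34 for shId1 against shScr at 24 h, 0.12 to 0.29 for doxycycline at 24 h and 0.24 to 0.44 for its interaction with time. The nuclear median scaled to the nuclear-encoded total was 0.19 in ID1 +dox, -0.0126 in ID1 -dox and -0.0647 in shId1 cells. Whether the replicate numbers pair shId1 with shScr libraries is not settled. Only the replicates numbered 1 correlated best with their own number there. In no comparison, shId1 against shScr included, did every library correlate best with its own number. Apart from shId1 against shScr and the interactions, the block moved a count of calls by over 1.5 times only for 24 h in shId1 cells.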
